A study of Mus musculus with 6 samples.

Results

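The genes of the lysosomal proton pump, the cathepsins, Lamp1, Lamp2 and Tfeb were followed in the myocardium of male wild-type (WT) mice by RNA sequencing. Members were the protein-coding genes whose symbol starts with Atp6v or Atp6ap, or is Cts followed by 1 letter or digit, or is Lamp1, Lamp2 or Tfeb. This rule gave 51 of the 21897 protein-coding genes in the files, namely 26 pump genes, 22 cathepsins and 3 others, and it used no measured value. The mice had been injected with STZ or with PBS. Streptozotocin (STZ) kills the pancreatic cells that make insulin and is used to make mice diabetic. The STZ group has 3 libraries, titled DM. The PBS group has 3 libraries titled Ctrl. Both groups share sex, genotype and a time of 8 weeks, whose starting point the labels leave unsaid, as they do strain and age. STZ diabetes is a model of insulin deficiency, and blood glucose of these animals was not analysed here. Whether each library is a separate mouse is not stated, so p-values measure only how far these libraries differ, in part perhaps for technical reasons.

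Lysosomes digest proteins, lipids and sugars at an acid pH. The vacuolar proton pump makes that pH: its V1 sector, in the cytosol, splits ATP, and its V0 sector, in the membrane, carries the protons. Cathepsins are proteases, most of which need the acid lumen to mature and to work. LAMP proteins line the lysosomal membrane, and TFEB is a transcription factor that turns on lysosomal genes when it enters the nucleus, a step that mTORC1 holds back. In cardiomyocytes this system clears damaged mitochondria and glycogen delivered by autophagy.

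Values are FPKM (fragments per transcript length and per total of mapped fragments), which sum to between 531384 and 589719 in the 5 complete libraries. The number of fragments is unknown, so no counting interval can be given. The file of PBS replicate 3 lists 7711 of 55401 genes (13.9%), and that library was therefore set beside the comparison of 3 STZ with 2 PBS libraries. Mitochondrially encoded genes made up 42.0% to 45.5% of the summed FPKM in STZ libraries and 47.1% to 47.3% in the PBS libraries compared. Every FPKM is relative to the mapped fragments, and the mitochondrial share of those is unknown. The heart-muscle genes Myh6 and Tnnt2 were both at 671 FPKM or more in each complete library. Of 6 cardiomyocyte markers none passed (limma), 2 were positive and 4 negative, and Ryr2, the calcium release channel, was at 7.95 to 21.8 FPKM in STZ and 28.9 to 35.6 FPKM in PBS libraries (log2 fold change -1.24, limma adjusted p = 0.101). The part of these marker differences in the values below was not tested. Atrial markers differed widely within both groups, from 0.49 to 439 summed FPKM in STZ and from 50.4 to 332 in PBS libraries, and their part was not tested either. In bulk tissue, fewer cells of a type and less RNA per cell cannot be told apart.

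No transcript of this acid digestive system passed the test between STZ and PBS hearts, and the estimates ran from -0.48 to 0.53 on the log2(FPKM + 1) scale. Of the 51 members, 31 were detected, meaning that 2 or more of the 5 complete libraries reached 1 FPKM. None of the 31 passed an adjusted p of 0.05 in either direction (limma on log2(FPKM + 1), adjusted over all 11556 genes tested), where 5.82% of all genes tested passed, 3.64% upward and 2.17% downward. At an unadjusted p under 0.05, 4 of the 31 passed, against 26.6% of all genes. The median log2 fold change, STZ minus PBS, was 0.05 over the members and 0.06 over all genes tested, with 17 members positive and 14 negative, where 57% of all genes were positive.

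**Figure D1:**
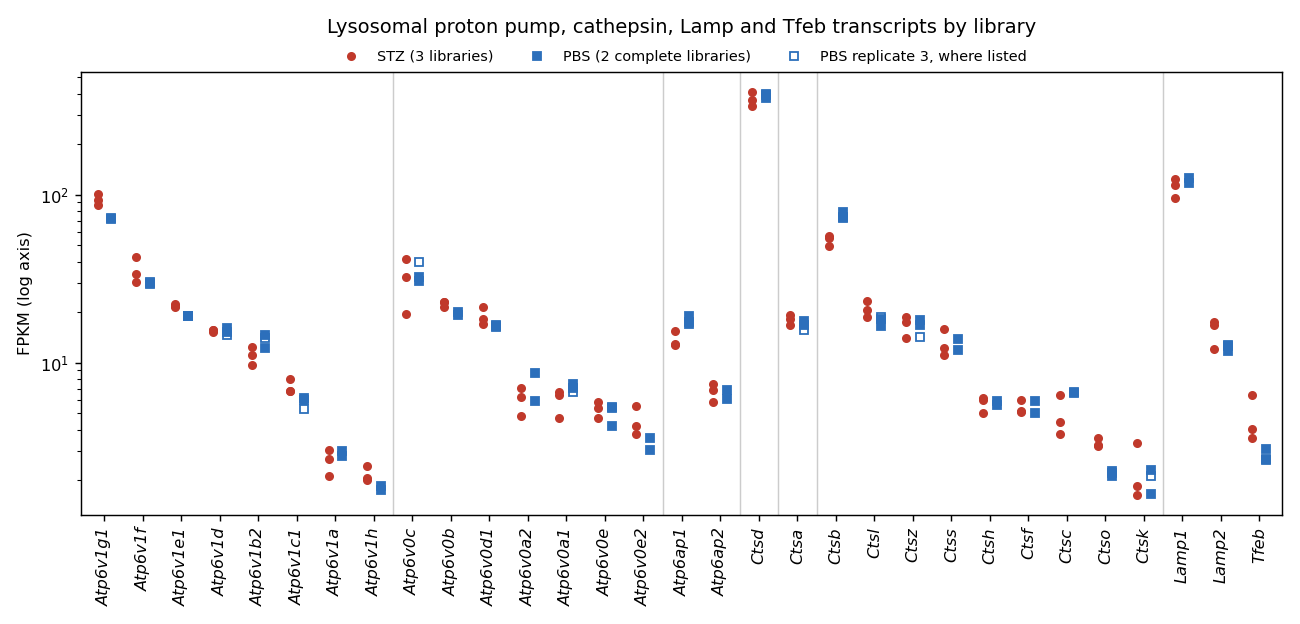
FPKM of the 31 detected members in each library on a log axis, with STZ libraries (circles) left of PBS libraries (squares) and the partly listed PBS replicate 3 as open squares; vertical lines separate V1 subunits, V0 subunits, accessory proteins, aspartic, serine and cysteine cathepsins, and Lamp1, Lamp2 and Tfeb. Ctsd, at 336 to 407 FPKM in STZ libraries and 375 to 398 FPKM in the 2 complete PBS libraries, stands above all others, and for most genes the groups lie close together.

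The intervals of these changes were somewhat narrower than over all genes tested, on log2(FPKM + 1), a scale that understates changes of low genes. With a pseudocount of 0.1 in place of 1, the log2 fold change was 0.65 for Tfeb and 0.58 for Ctso. The 95% interval of the log2 fold change lay wholly between -1 and 1 for 30 of the 31 members (96.8%), as it did for 81.0% of all genes tested, and Tfeb was the exception. It lay between -0.5 and 0.5 for 14 members (45.2%), against 26.9% of all genes. The median half-width of the members' intervals was 0.34, against 0.38 over all genes tested. A log2 fold change below 0.34 in a typical member thus has an interval that includes 0. Of all genes tested 672 passed, with a smallest absolute log2 fold change of 0.46 and a median of 0.94. Only 1 of these 672 (0.1%) had a change no larger than the largest among the members, 0.53. By direction, 421 were higher and 251 lower in STZ. Centring on library medians made that split 325 higher and 345 lower, quantile normalization 336 and 333, and rescaling to TPM 464 and 171. The STZ and PBS libraries did not overlap for 15 of the 31 members (48.4%), 11 higher and 4 lower in STZ, and over all genes tested 47.4% did not overlap, 28.7% higher and 18.8% lower. PBS replicate 3 lists 10 of those 15, and it lay on the PBS side in all 10. Over all genes tested that did not overlap and that this library lists, 86.2% still did not overlap with it.

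**Figure D2:**
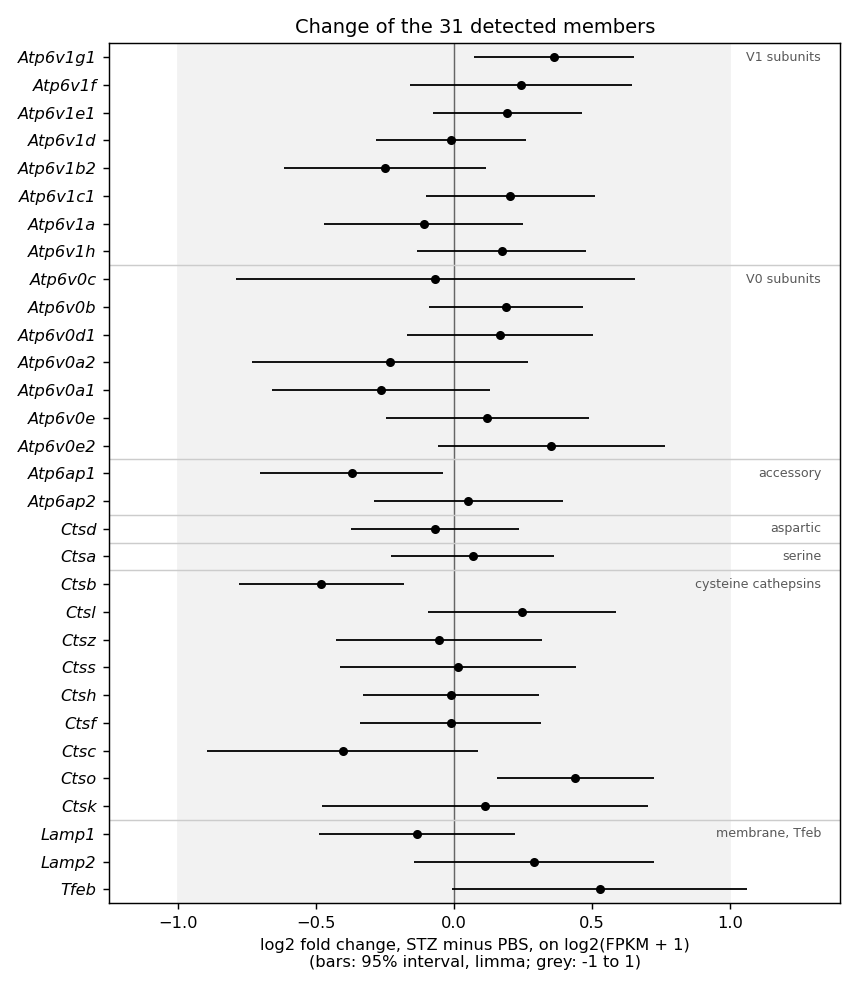
Log2 fold change, STZ minus PBS, of the 31 detected members on the log2(FPKM + 1) scale, with bars for the 95% interval of limma and grey for the range from -1 to 1. The points run from -0.48 for Ctsb to 0.53 for Tfeb, and the bar of Tfeb alone leaves the grey band.

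In the V1 sector, the part of the pump that splits ATP, 8 of 13 genes were detected and none passed. Subunit G1 (Atp6v1g1, chromosome 4, 63544772 to 63550750, GRCm38), which belongs to the peripheral stalk, was the most abundant pump transcript. It had 87.4, 92.8 and 101 FPKM in STZ libraries, against 72.2 and 73.0 FPKM in PBS libraries. All STZ values lay above both PBS values, and the log2 fold change was 0.36 ± 0.12 (SE; limma adjusted p = 0.123, 95% interval 0.07 to 0.65). Subunit F (Atp6v1f), in the central rotor, had 30.3, 33.9 and 42.6 FPKM in STZ libraries, against 29.6, 29.6 and 30.1 FPKM in the 3 PBS libraries. Its groups did not overlap, but the lowest STZ library stood only just above PBS (log2 fold change 0.24, limma adjusted p = 0.396, and 0.11 as the log2 fold change without STZ replicate 3). The stalk subunit E1 (Atp6v1e1) was narrow within each group, at 21.7, 21.5 and 22.5 FPKM in STZ and 19.1, 19.0 and 19.0 FPKM in PBS libraries (log2 fold change 0.19, limma adjusted p = 0.318).

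The catalytic hexamer is built from subunits A and B. The catalytic subunit A (Atp6v1a) was low, at 3.04, 2.67 and 2.12 FPKM in STZ and 2.98 and 2.77 FPKM in PBS libraries. The B2 subunit (Atp6v1b2) was at 11.2, 12.4 and 9.73 FPKM in STZ libraries, against 14.6, 12.2 and 14.0 FPKM in PBS libraries, with overlapping groups and a log2 fold change of -0.25 (limma adjusted p = 0.338). B2 thus had several times the FPKM of A in each library, although the assembled pump holds equal copies of both. The rotor subunit D (Atp6v1d) had 15.6 ± 0.231 FPKM in STZ (SD, n = 3) and 15.7 ± 0.537 FPKM in PBS libraries (SD, n = 2). Subunit C1 (Atp6v1c1), which clamps the sectors together, averaged 7.21 ± 0.713 FPKM in STZ (SD, n = 3) and 6.11 ± 0.0919 FPKM in PBS (SD, n = 2), and the regulatory subunit H (Atp6v1h) 2.16 ± 0.226 FPKM in STZ and 1.80 ± 0.0566 FPKM in PBS. The summed FPKM of all V1 genes was 179, 190 and 203 in STZ libraries, against 164 and 161 in PBS libraries, and Atp6v1g1 made up the largest part of it.

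The pump's tissue-specific isoforms were all but silent. Atp6v1b1, the B isoform known from kidney and inner ear, and Atp6v1c2, Atp6v1g3 and Atp6v1e2 were at 0 in all 5 complete libraries. Atp6v1g2, the isoform known from neurons, had 0.65, 0.87 and 0.62 FPKM in STZ libraries, against 1.15, 0.72 and 0.59 FPKM in PBS libraries, and 1 library above 1 FPKM did not meet the filter. The lowest detected member by mean, Atp6v1h, reached 1 FPKM in all 5 complete libraries. Atp6v1g1 accordingly made up 99.3% ± 0.153 of the G subunit FPKM in STZ (SD, n = 3) and 98.7% ± 0.424 in PBS libraries (SD, n = 2). Atp6v1fnb, also at 0 in the 5 complete libraries, meets the symbol rule as the neighbour of Atp6v1f and is not known as a pump subunit.

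In the V0 sector, which carries the protons, 7 of 9 genes were detected and none passed. The proteolipid c (Atp6v0c), the ring that turns with each proton, had 32.5, 19.5 and 41.7 FPKM in STZ libraries, against 30.5, 32.2 and 39.9 FPKM in the 3 PBS libraries. STZ replicate 2 stood well below the rest, and without it the log2 fold change of -0.07 became 0.23. Atp6v0c shares sequence with its processed pseudogene Atp6v0c-ps2, which is not a member. That pseudogene was listed at 0.75, 1.12 and 0.62 FPKM in STZ libraries, against 18.5 and 16.1 FPKM in PBS libraries (log2 fold change -3.33, limma adjusted p = 0.00127). Reads of a gene and its near-identical copy can be split between them, so both values are uncertain. If reads of Atp6v0c were listed under the copy, its PBS values would be understated more than its STZ values. The true log2 fold change would then lie below -0.07. Whether this happened was not tested.

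The ring's partner c'' (Atp6v0b) had 21.4, 23.1 and 23.0 FPKM in STZ libraries, against 19.2 and 20.0 FPKM in PBS libraries, and subunit d1 (Atp6v0d1), which couples the ring to the rotor, 16.9, 21.4 and 18.3 FPKM in STZ libraries, against 16.5, 16.7 and 16.2 FPKM in PBS libraries. Both pairs of groups were apart, by little. The small e subunits also had positive estimates: Atp6v0e2 averaged 4.52 ± 0.927 FPKM in STZ (SD, n = 3) and 3.29 ± 0.389 FPKM in PBS (SD, n = 2), with a log2 fold change of 0.35 (limma adjusted p = 0.242), and Atp6v0e 5.32 ± 0.581 FPKM in STZ and 4.83 ± 0.891 FPKM in PBS.

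The a subunit sets where in the cell the pump works, and both detected members among its isoforms had negative estimates. Atp6v0a1 had 6.42, 6.66 and 4.70 FPKM in STZ libraries, against 7.47, 7.04 and 6.71 FPKM in PBS libraries. All 3 STZ values lay below all 3 PBS values, with STZ replicate 2 only just below PBS replicate 3 (log2 fold change -0.26, limma adjusted p = 0.349). STZ replicate 3 was the lowest, and without it the log2 fold change was -0.13. Atp6v0a2, an isoform known from the Golgi and endosomes, had 6.22, 7.11 and 4.81 FPKM in STZ libraries, against 5.96 and 8.67 FPKM in PBS libraries, with overlapping groups. The a3 isoform goes by the symbol Tcirg1 and falls outside the rule. It is known for its part in osteoclasts and late endosomes, and had 2.60, 3.29 and 3.99 FPKM in STZ libraries, against 1.9, 2.16 and 2.99 FPKM in the 3 PBS libraries (log2 fold change 0.49, limma adjusted p = 0.13). Of the summed FPKM of the a isoforms, Tcirg1 made up 17.1%, 19.3% and 29.6% in STZ libraries and 12.4% and 12.1% in PBS libraries, while Atp6v0a1 made up 38.6% ± 3.66 in STZ (SD, n = 3) and 44.0% ± 6.51 in PBS (SD, n = 2). Atp6v0a4 and Atp6v0d2, known from kidney and osteoclasts, stayed at or below 0.08 FPKM. Over the whole V0 sector the summed FPKM was 93.8, 87.4 and 102 in STZ and 87.5 and 93.1 in PBS libraries, ranges that overlap. This sum holds the uncertain value of Atp6v0c and leaves out Atp6v0c-ps2, which was at 18.5 and 16.1 FPKM in PBS libraries.

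The accessory protein Atp6ap1 (chromosome X, 74297097 to 74304721), needed to assemble the V0 sector, had one of the larger downward estimates. It had 12.7, 15.4 and 13.0 FPKM in STZ libraries, against 17.1, 18.9 and 17.4 FPKM in the 3 PBS libraries. Every STZ value lay below every PBS value, and the log2 fold change was -0.37 ± 0.14 (SE, limma adjusted p = 0.151). Atp6ap2, also called the prorenin receptor, averaged 6.73 ± 0.828 FPKM in STZ (SD, n = 3) and 6.45 ± 0.559 FPKM in PBS (SD, n = 2), with a 95% interval of the log2 fold change from -0.29 to 0.39. Atp6ap1l was below the filter, at 0.26 to 0.37 FPKM in STZ and 0 to 0.08 FPKM in PBS libraries.

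Among the 17 detected pump genes of the symbol rule, the sign of the estimate tended to go with the size of the coding sequence. Tcirg1 and Rnasek, pump subunits outside the rule, were not included, and had log2 fold changes of 0.49 and 0.46. Their coding lengths are not given here, so the pattern holds only for the genes of the rule. Tcirg1 is an isoform of the a subunit, as are Atp6v0a1 and Atp6v0a2, which are long and had negative estimates. The 5 detected pump genes with a coding length under 600 bases (Atp6v0e, Atp6v0e2, Atp6v1g1, Atp6v1f and Atp6v0c) had a median log2 fold change of 0.24, the 6 between 600 and 1200 bases 0.18, and the 6 longer ones (Atp6ap1, Atp6v1h, Atp6v1b2, Atp6v1a, Atp6v0a1 and Atp6v0a2) -0.24, with Atp6v1h alone above 0 among the last. Over all nuclear protein-coding genes tested the medians in these length classes were 0.01, 0.04 and 0.06. Across the 17 detected pump genes the Spearman rank correlation of coding length and log2 fold change was -0.68 (Pearson r with log2 length -0.71). This correlation was -0.32 across 11 cathepsins and 0.01 across the 10053 nuclear protein-coding genes tested. These genes come from the same libraries and are not independent, so the value is a description. With 1 library left out, the rank correlation across the pump genes lay between -0.50, without STZ replicate 3, and -0.74, without STZ replicate 2.

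**Figure D3:**
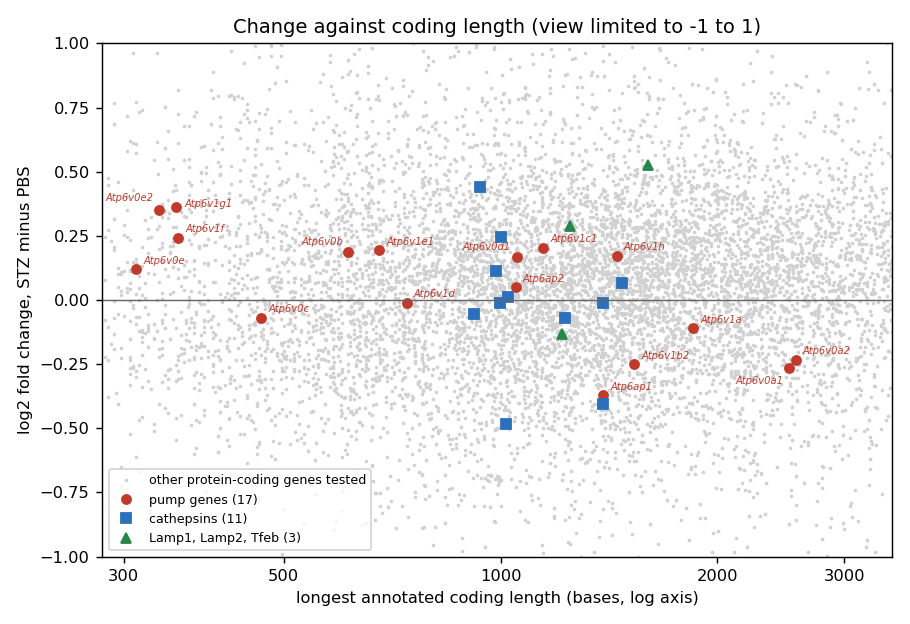
Log2 fold change, STZ minus PBS, against the longest annotated coding length (bases, log axis) for the 17 detected pump genes (circles, named), 11 cathepsins (squares), Lamp1, Lamp2 and Tfeb (triangles) and the other nuclear protein-coding genes tested (grey; genes outside -1 to 1 or outside the length range shown are not drawn). The short pump genes at the left lie mostly above 0 and 5 of the 6 with over 1200 coding bases lie below it.

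Among the cathepsins, 11 of 22 were detected, none passed, and their median log2 fold change was -0.01. Cathepsin D (Ctsd, chromosome 7, 142375911 to 142388038), the aspartic protease of lysosomes, was by far the most abundant. It had 366, 407 and 336 FPKM in STZ libraries, against 398, 375 and 394 FPKM in the 3 PBS libraries. The STZ range enclosed all PBS values, the log2 fold change was -0.07 (limma adjusted p = 0.76), and the 95% interval ran from -0.37 to 0.24. Ctsd made up 71.9% ± 0.872 of all cathepsin FPKM in STZ (SD, n = 3) and 70.5% ± 0.354 in PBS (SD, n = 2). An annotated gene on the same strand, Gm49369, covers 34.4% of the exon bases of Ctsd and was listed at 0 in the 5 complete libraries. The summed cathepsin FPKM was 505, 563 and 475 in STZ libraries, against 568 and 531 in PBS libraries, with overlapping ranges.

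Cathepsin B (Ctsb, chromosome 14, 63122462 to 63145923), a cysteine protease that acts both as an endopeptidase and as a carboxypeptidase, had the largest downward estimate of the members. It had 55.0, 56.7 and 49.7 FPKM in STZ libraries, against 78.6, 72.3 and 73.4 FPKM in the 3 PBS libraries. Every STZ value lay well below every PBS value. The log2 fold change was -0.48 ± 0.12 (SE, limma adjusted p = 0.0752, 95% interval -0.78 to -0.18), which did not pass. With PBS replicate 3 added, a fit that uses this library only for the genes it lists, Ctsb passed, at a log2 fold change of -0.47 (limma adjusted p = 0.0303, where the adjusted p ran from 0.0303 to 0.423 over all settings tried), and it also passed under quantile normalization (limma adjusted p = 0.0494). As a share of all cathepsin FPKM, Ctsb made up 10.9%, 10.1% and 10.5% in STZ libraries and 13.8% and 13.6% in PBS libraries. Exons of Fdft1 on the opposite strand overlap 12.8% of its exon bases, and Fdft1 had 8.15 ± 3.05 FPKM in STZ (SD, n = 3) and 5.91 ± 1.29 FPKM in PBS (SD, n = 2), with overlapping groups. The part of Fdft1 reads in the values of Ctsb was not tested.

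Cathepsin O (Ctso, chromosome 3, 81932601 to 81956725), a little-studied cysteine cathepsin, had an estimate of similar size in the other direction, at a low level. It had 3.23, 3.57 and 3.20 FPKM in STZ libraries, against 2.28, 2.11 and 2.22 FPKM in the 3 PBS libraries. All STZ values were higher than all PBS values, and the log2 fold change was 0.44 ± 0.12 (SE, limma adjusted p = 0.0812). It passed with PBS replicate 3 added, at a log2 fold change of 0.43 (limma adjusted p = 0.0348, range over all settings 0.0348 to 0.378). Cathepsin L (Ctsl), a strong endopeptidase known to be needed for normal heart muscle in mice, had 18.7, 23.4 and 20.5 FPKM in STZ libraries, against 18.2, 16.5 and 18.6 FPKM in the 3 PBS libraries. Its groups were apart by 0.01 FPKM (log2 fold change 0.25, limma adjusted p = 0.314), and as a share of all cathepsin FPKM it made up 4.06% ± 0.327 in STZ (SD, n = 3) and 3.17% ± 0.0636 in PBS (SD, n = 2).

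Cathepsin C (Ctsc), which activates the serine proteases of neutrophils and other immune cells, had 4.47, 6.46 and 3.75 FPKM in STZ libraries, against 6.58 and 6.74 FPKM in PBS libraries. STZ replicate 2 was close to PBS, and the estimate was -0.40 ± 0.20 (log2 fold change, SE, limma adjusted p = 0.258). The immune-cell protease cathepsin S (Ctss) had 11.2, 15.9 and 12.3 FPKM in STZ libraries, against 13.9 and 11.8 FPKM in PBS libraries, with overlapping groups and a log2 fold change of 0.01. The 14 listed macrophage markers summed to 173, 242 and 207 FPKM in STZ and 249 and 218 FPKM in PBS libraries. Single markers ranked the STZ libraries differently. Lyz2, the largest part of the sum, had 64.8, 99.1 and 71.6 FPKM, in the order of Ctss. Adgre1 had 1.6, 2.34 and 1.5 FPKM, in the order of Ctsc. C1qa, at 32.5, 43.4 and 47.0 FPKM, and Mertk, at 2.81, 2.82 and 4.19 FPKM, followed neither order. Of these markers 12 were tested, none passed, 4 were positive and 8 negative, with a median log2 fold change of -0.13, and none was at 0 throughout. The 11 neutrophil markers summed to 43.0, 63.1 and 52.9 FPKM in STZ, against 3.66 and 8.26 FPKM in PBS libraries. S100a8, S100a9 and Retnlg made up most of each sum. These 3 alone were tested, and all passed upward (S100a9 not when no filter was set on low values, limma adjusted p = 0.0596). Retnlg met the filter through STZ libraries alone. Of those that did not meet it, Mmp8, Ngp and Cxcr2 were higher in every STZ library than in both complete PBS libraries, and Csf3r overlapped. Ly6g and Camp were at 0 in PBS and in some STZ libraries, and Elane and Mpo were at 0 throughout. The part of these cells in the values of Ctsc and Ctss was not tested. Cathepsin G (Ctsg), a protease of neutrophil and mast cell granules, was at 0 in the 5 complete libraries. None of 6 mast cell markers and 10 lymphocyte markers met the filter on low values.

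The remaining detected cathepsins differed by less than their spread. Cathepsin Z (Ctsz), a carboxypeptidase, averaged 16.8 ± 2.42 FPKM in STZ (SD, n = 3) and 17.4 ± 0.919 FPKM in PBS (SD, n = 2). Cathepsin A (Ctsa), a serine carboxypeptidase that also protects beta-galactosidase, averaged 18.1 ± 1.24 FPKM in STZ and 17.2 ± 0.728 FPKM in PBS. Ctsh and Ctsf, both papain-like cysteine proteases, had log2 fold changes of -0.01 and -0.01, with 95% intervals from -0.33 to 0.31 and from -0.34 to 0.31. Cathepsin K (Ctsk), the collagen-degrading enzyme of osteoclasts, had 3.35, 1.64 and 1.84 FPKM in STZ libraries, against 2.30, 1.65 and 2.11 FPKM in the 3 PBS libraries, with STZ replicate 1 apart from the rest. Ctsw, known from cytotoxic lymphocytes, and Ctse, known from stomach and immune cells, stayed at or below 0.11 FPKM. The 8 placental cathepsins of mice (Cts3, Cts6, Cts7, Cts8, Ctsj, Ctsm, Ctsq and Ctsr) stayed at or below 0.01 FPKM, and 7 of them were at 0 in all 5 complete libraries.

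Lamp1 and Lamp2, the major glycoproteins of the lysosomal membrane, did not pass. Lamp1 (chromosome 8, 13159161 to 13175338) had 115, 124 and 95.6 FPKM in STZ libraries, against 126 and 117 FPKM in PBS libraries. Lamp2 (chromosome X, 38401357 to 38456454), whose loss causes a cardiomyopathy with autophagic vacuoles in humans, had 17.4, 16.7 and 12.02 FPKM in STZ libraries, against 12.7, 11.8 and 12.6 FPKM in the 3 PBS libraries. Its STZ replicates 1 and 2 lay above PBS and replicate 3 within it (log2 fold change 0.29, limma adjusted p = 0.353). Lamp1 made up 86.9%, 88.1% and 88.8% of the summed FPKM of Lamp1 and Lamp2 in STZ libraries, and 90.8% and 90.9% in PBS libraries.

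Tfeb (chromosome 17, 47737030 to 47792419), the transcription factor of the system, had an estimate that rested in part on 1 library. It had 3.59, 6.39 and 4.02 FPKM in STZ libraries, against 3.06, 2.64 and 2.68 FPKM in the 3 PBS libraries. All STZ values were higher than all PBS values, with STZ replicate 2 far above the other STZ libraries. The log2 fold change was 0.53 ± 0.22 (SE, limma adjusted p = 0.192, 95% interval -0.01 to 1.06). Without STZ replicate 2 it was 0.32. Its relative Tfe3 had 1.38, 1.89 and 1.69 FPKM in STZ libraries, against 1.53, 1.75 and 1.35 FPKM in the 3 PBS libraries. Mitf had 6.74, 7.41 and 6.18 FPKM in STZ libraries, against 5.27 and 5.49 FPKM in PBS libraries, and did not pass. Tfec stayed at or below 0.06 FPKM.

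TFEB and its relatives bind the E-box CACGTG, most often with flanks that extend it, so the promoters of the members were searched for it. The windows are RefSeq's, on GRCm38.p6, from 250 bases before to 50 bases after each annotated start, and 40 of the 51 members matched one by symbol. Some genes have several windows, and a gene was counted with a motif if any of them held it. CACGTG, which reads the same on both strands, was present in 9 of these 40 (22.5%) and in 8.09% of the 27025 genes with a window. The longer TCACGTG, searched on both strands and containing CACGTG, was present in 7 of the 40 (17.5%), against 4.29% of all genes. Only 24 of the detected members had a window. Ctsb, Ctsh, Atp6v1g1, Atp6v1b2, Atp6v1c1, Atp6v1h and Atp6v0a2 had none, so whether they carry the E-box is not known here. All 9 members with the core, and so all 7 with the longer form, were among the detected ones. The members with the core are Lamp1, Ctsd, Ctsa, Atp6v0b, Atp6v0d1, Atp6v0e, Atp6v1a, Ctsf and Ctsl, the last 2 without the longer form. The 7 with TCACGTG had log2 fold changes from -0.13 to 0.19, with a median of 0.07. Whether TFEB acts on these genes was not tested. A match is a string of letters, not a measured binding site.

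The windows of 4 members with the E-box are shown because they differ in its number and place, beside that of Ctso, whose window holds none. Capitals mark CACGTG. In the window of Lamp1, on the plus strand at chr8:13158911-13159210, the E-box occurred 4 times, at -61, -45, -28 and -15 from the start. In that of Ctsd, on the minus strand at chr7:142387778-142388077, it stood at -245 and -98. Ctsa, on the plus strand at chr2:164833523-164833822, had it at -12 and 5, and Atp6v1a, on the minus strand at chr16:44139210-44139509, at -131. Ctsa has another window, at chr2:164832622-164832921, which covers the annotated start of the gene and holds no CACGTG. The window of Ctso lies on the plus strand at chr3:81932351-81932650.
Lamp1: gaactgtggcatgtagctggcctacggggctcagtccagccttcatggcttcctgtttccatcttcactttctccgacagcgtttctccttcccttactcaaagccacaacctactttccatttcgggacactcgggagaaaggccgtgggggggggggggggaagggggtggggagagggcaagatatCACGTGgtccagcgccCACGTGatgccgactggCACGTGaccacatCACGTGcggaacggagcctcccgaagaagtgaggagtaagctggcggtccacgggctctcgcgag
Ctsd: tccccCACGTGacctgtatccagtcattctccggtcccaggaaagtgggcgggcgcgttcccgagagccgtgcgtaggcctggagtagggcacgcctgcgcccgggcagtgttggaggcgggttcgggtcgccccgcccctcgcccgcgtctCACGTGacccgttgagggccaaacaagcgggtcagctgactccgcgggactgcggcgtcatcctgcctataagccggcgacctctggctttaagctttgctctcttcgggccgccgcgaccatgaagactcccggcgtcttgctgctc
Ctsa: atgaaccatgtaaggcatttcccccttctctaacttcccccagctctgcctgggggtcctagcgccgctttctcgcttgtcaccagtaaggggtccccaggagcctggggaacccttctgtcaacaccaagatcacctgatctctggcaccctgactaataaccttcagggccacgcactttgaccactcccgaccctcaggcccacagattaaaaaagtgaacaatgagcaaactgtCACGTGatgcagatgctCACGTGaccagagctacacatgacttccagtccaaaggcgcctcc
Atp6v1a: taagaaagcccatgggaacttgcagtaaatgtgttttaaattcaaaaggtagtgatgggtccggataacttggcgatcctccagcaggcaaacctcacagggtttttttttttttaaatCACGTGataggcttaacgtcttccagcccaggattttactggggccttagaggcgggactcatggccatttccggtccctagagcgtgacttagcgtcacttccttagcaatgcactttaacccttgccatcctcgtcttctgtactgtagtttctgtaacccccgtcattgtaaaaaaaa
Ctso: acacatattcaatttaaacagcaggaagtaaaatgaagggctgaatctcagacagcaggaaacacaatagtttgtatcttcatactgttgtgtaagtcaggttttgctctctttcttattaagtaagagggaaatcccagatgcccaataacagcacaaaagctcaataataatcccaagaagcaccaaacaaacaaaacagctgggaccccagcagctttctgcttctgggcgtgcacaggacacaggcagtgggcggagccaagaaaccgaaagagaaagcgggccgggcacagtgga

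In the rest of the lysosome, 1 gene of the hydrolase, membrane, sorting and control lists passed. None of 32 other lysosomal hydrolases tested, of 35 listed, passed, with 12 positive and 20 negative and a median log2 fold change of -0.05. The largest in size was Lipa, the acid lipase, at 3.80, 3.50 and 4.12 FPKM in STZ libraries, against 2.27, 2.34 and 2.35 FPKM in the 3 PBS libraries. Its groups were well apart, and it did not pass (log2 fold change 0.54, limma adjusted p = 0.0557). Of 19 other lysosomal membrane proteins and activators tested 1 passed, upward, with a median of 0.10. This was Cd63, a tetraspanin of late endosomes, lysosomes and secreted vesicles. It had 37.3, 44.5 and 42.6 FPKM in STZ libraries, against 22.5, 25.8 and 22.2 FPKM in the 3 PBS libraries (log2 fold change 0.76, limma adjusted p = 0.0359). Every STZ value was far above every PBS value, but Cd63 no longer passed with any 1 library left out, with limma adjusted p-values from 0.05 to 0.269, nor with no filter on low values (0.0871). None of 13 genes that sort hydrolases to lysosomes passed (median 0.05), nor did any of 25 in the list of the TFEB family and its mTORC1 control (median 0.00, with 13 positive), or of 8 pump assembly factors and regulators (median 0.06). In the sorting list, Gnptg, a subunit of the enzyme that begins the mannose 6-phosphate tag of hydrolases, had 6.81, 5.67 and 8.16 FPKM in STZ libraries, against 3.24 and 3.91 FPKM in PBS libraries (log2 fold change 0.78, limma adjusted p = 0.0525). Its groups were apart. Flcn, part of the Rag GTPase switch that lets mTORC1 hold TFEB in the cytosol, had 17.1, 13.3 and 26.4 FPKM in STZ libraries, against 12.2 and 7.89 FPKM in PBS libraries (log2 fold change 0.83, limma adjusted p = 0.152). Each of these lists also held downward estimates. The lowest log2 fold change was -0.47 among the hydrolases (Smpd1, limma adjusted p = 0.173) and -0.48 among the membrane proteins (Tpcn1, limma adjusted p = 0.0712). In the sorting list it was -0.35 (Sort1, limma adjusted p = 0.387), and in the TFEB and mTORC1 list -0.50 (Tsc2, limma adjusted p = 0.118).

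Among the inhibitors of cathepsins 1 gene passed. All 5 tested of 11 listed had a positive sign, with a median log2 fold change of 0.40. Over all genes tested 57% were positive and 5.82% passed. Of those below the filter, Serpinb1a and Cst7 were lower in every STZ library than in both complete PBS libraries, and Cst6 overlapped. Stfa2 was at 0 in PBS and in part of the STZ libraries, and Stfa1 and Stfa3 were at 0 in all complete libraries. Serpina3n, a secreted serpin that inhibits serine proteases including cathepsin G in mice, had 19.8, 30.0 and 21.2 FPKM in STZ libraries, against 4.89, 3.91 and 4.67 FPKM in the 3 PBS libraries. The groups were far apart (log2 fold change 2.17, limma adjusted p = 0.00806), while without either complete PBS library the adjusted p was 0.0582 or 0.0675. Cystatin C (Cst3), the main secreted inhibitor of cysteine cathepsins, was abundant. It had 371, 386 and 375 FPKM in STZ libraries, against 286, 286 and 267 FPKM in the 3 PBS libraries. Its groups were tight and apart, with 0.40 ± 0.10 as the log2 fold change (SE, limma adjusted p = 0.0772), and it passed with PBS replicate 3 added (log2 fold change 0.43, limma adjusted p = 0.0255).

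**Figure D4:**
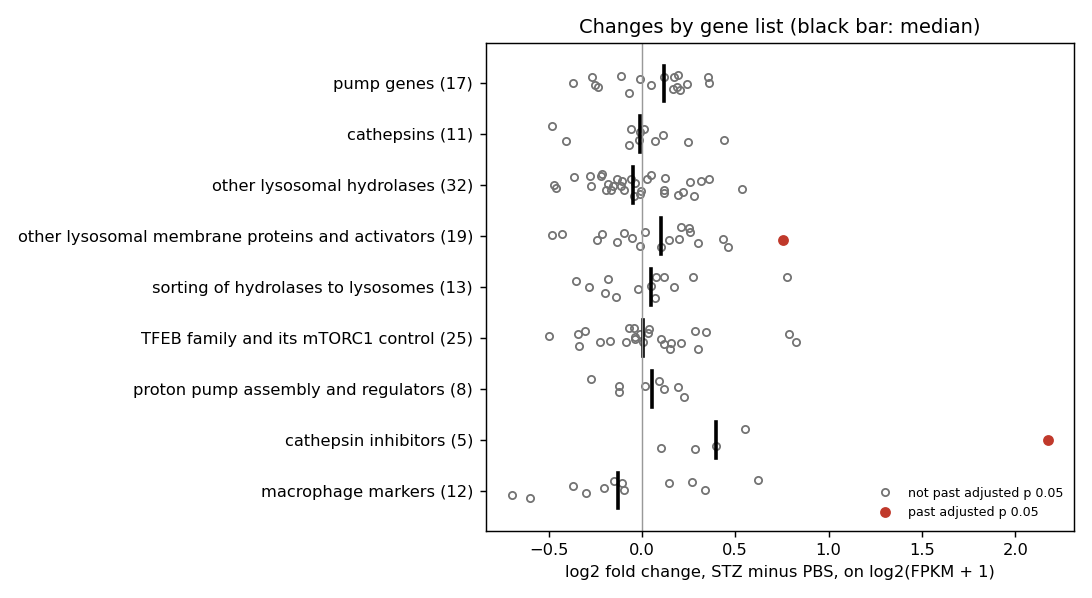
Log2 fold changes, STZ minus PBS, of the tested genes of the pump, the cathepsins and 7 related lists, 1 point a gene with a black bar at each median and the number tested in brackets. Filled points passed an adjusted p of 0.05: Cd63 at 0.76 and Serpina3n at 2.17.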

How the data were processed

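Per the labels' protocols, poly(A) RNA was selected and the second cDNA strand marked with dUTP. The tools named per the submitters' processing notes are StringTie 1.3.4d, HISAT2 2.0.4 and cutadapt 1.9, with GRCm38 as the build. Filters, strand setting and annotation release: not given in the sources used here. So reads of overlapping genes or near-identical copies may be shared. The deposited values are FPKM per gene, 1 library a file, rounded to 2 decimals. Symbols, positions and coding lengths came from GENCODE M21.

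Genes that reached 1 FPKM in 2 or more of the 5 complete libraries were tested on log2(FPKM + 1) with limma 3.58.1 in R 4.3.3 (eBayes with trend, two-sided, Benjamini-Hochberg over 11556 genes), a scale that understates changes of low genes. Libraries listing under 50% of genes stayed out. On simulated libraries of 11556 genes, with 100 genes changed at each of 2 sizes, it recovered 48% of log2 changes of 1 and 87% of 2, and 6.25% of calls were false. The changed genes were drawn from the more abundant ones only, so these rates do not cover most of the detected members. Those not covered include Tfeb and Ctso, and also Atp6v0a1, Atp6v1a, Atp6v1b2, Ctsc, Ctss and Lamp2. Every member's estimate was smaller than both simulated sizes. Each member detected is named, with fuller statistics for the most abundant and most changed per role; from other lists, genes past the threshold and some chosen after their values were seen. Members and lists were chosen with earlier results of these data known. Alternatives are given in the closing section.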

Additional observations from a re-analysis of the deposited data

How the results depend on the processing

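Of all genes tested 672 passed. No filter on low values gave 81 of 26229 genes, a replicate block 64, PBS replicate 3 added 1169, and leaving out 1 library between 24 (without PBS replicate 1) and 398 (without STZ replicate 3). Among the members, 1 passed upward and 1 downward with PBS replicate 3 added (Ctso and Ctsb), and 1 passed downward under quantile normalization (Ctsb, limma adjusted p = 0.0494). The replicate block called 0 members. Replicate numbers were not taken as pairing: same-numbered libraries deviated together with r = 0.176, -0.0502 and 0.15, and STZ replicate 2 correlated best with PBS replicate 1 (0.0882). Under the block, Cd63 (limma adjusted p = 0.0728), Serpina3n (0.0537) and Col1a2 (0.0688) did not pass.

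The median log2 fold change of the members was 0.051; it was -0.011 with a filter at 5 FPKM, -0.019 centred on library medians, and from -0.026 to 0.109 with 1 library left out. Of 521 refits of the 31 members, 488 kept direction and side of the threshold, 3 passed it and 30 reversed sign. The reversals touched 11 members, none above 0.233 in size, and their cause was not tested. Centring gave Atp6ap2 -0.0185, Ctss -0.0555 and Ctsa -0.00132. Quantile normalization gave Ctss -0.0387, and rescaling without mitochondrial genes gave Ctss -0.0103. Rescaling to TPM gave Atp6v1d 0.0553, Ctsf 0.048, Ctsh 0.0506 and Ctsz 0.00965. PBS replicate 3 added gave Atp6v1d 0.0195 and Ctsz 0.0309. The replicate block gave Ctsf 0.0238 and Ctsh 0.0679. With 1 library left out, the log2 fold change of members that reversed ran from -0.47 to 0.00433 for Atp6v0a2, -0.303 to 0.226 for Atp6v0c, -0.0365 to 0.277 for Atp6v0e, -0.0438 to 0.0218 for Atp6v1d and -0.0261 to 0.138 for Atp6ap2. For cathepsins it ran from -0.118 to 0.0913 for Ctsf, -0.0592 to 0.0679 for Ctsh, -0.111 to 0.27 for Ctsk, -0.123 to 0.123 for Ctss and -0.135 to 0.0591 for Ctsz.

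With 2 complete PBS libraries, PBS spread rests on 2 values a gene. Fragments per gene are unknown, so counting error of low members such as Ctsk and Atp6v1h cannot be given.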

Other observations

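Fibroblast collagens, which cathepsins B, K and L can degrade outside the cell, were lower in STZ hearts. Of 6 fibroblast markers tested, 2 passed, both downward: Col1a1 with a log2 fold change of -1.67 (limma adjusted p = 0.00806; 0.0851 without PBS replicate 1) and Col1a2 with -0.92 (limma adjusted p = 0.0259; 0.204 and 0.123 without PBS replicate 1 or 2, 0.0555 and 0.0581 without STZ replicate 2 or 3, and 0.0863 with no filter on low values). The median of the 6 was -0.00, with 3 positive and 3 negative. No endothelial marker of 5 passed (median 0.14), and the 6 cardiomyocyte markers had a median of -0.27.

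Among the 31 detected members, STZ replicate 3 was the lowest of the 5 complete libraries for 10 and STZ replicate 2 the highest for 11. STZ replicate 1 was lowest for 4 and highest for 6, PBS replicate 1 lowest for 7 and highest for 5, and PBS replicate 2 lowest for 8 and highest for 3.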
